A study of Mus musculus with 12 samples.

Results

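The MHC class II presentation genes are described here in mouse lung endothelial cells (MLECs) of mice with and without an endothelial deletion of Sp1 and Sp3. The 8 genes were taken by name as the genes of this pathway, at a time when earlier results of these data were known. They are H2-Aa, H2-Ab1 and H2-Eb1, the classical class II chains, H2-DMa and H2-DMb1, the peptide exchange factor H2-DM, Cd74, the invariant chain, Ciita, the class II transactivator, and Ctss, the protease cathepsin S. Each of the 8 had a row among the 28689 genes of the deposited table, and 7 of them passed the filter on low values.

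The RNA of 12 MLEC libraries was sequenced, with 6 libraries each of CTR and dKO mice. The dKO mice were VE-CAD-CreERT2+/Sp1 fl/fl/Sp3 fl/fl and the CTR mice were their VE-CAD-CreERT2-/Sp1 fl/fl/Sp3 fl/fl littermates, so the CTR cells carry the floxed alleles too, although the labels call their genotype WT. All mice were adult males and received tamoxifen, which activates the Cre recombinase that the VE-cadherin promoter drives in endothelium. The cells had been selected with beads against CD31, plated, selected again with beads against ICAM2 and used at early passage, and how many mice a library pools is not stated, so a p-value here measures the spread between these libraries, which may be technical.

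Levels are given in FPKM, the number of fragments divided by gene length and library depth. Fold changes are differences of log2(FPKM + 1), a scale on which low genes appear to change less than they do. The libraries held between 15523054 and 17938286 fragments. A gene was called where its adjusted p (limma, Benjamini-Hochberg over 12467 tested genes) was under 0.05, and 53.1% of the tested genes were called. The targeted Sp1 was lower in each dKO library (8.42 to 12.1 FPKM) than in each CTR library (19.4 to 23.7 FPKM), while Sp3, whose adjusted p was 0.0902, ranged from 22.5 to 26.9 and from 24.2 to 31.1 FPKM. Without CTR replicate 6, the adjusted p of Sp3 was 0.0326. The Sp1 transcript was thus present in the dKO libraries at 0.499 times its CTR mean and Sp3 at 0.901 times. Neither transcript was absent under the dKO label. The paper reports less Sp1 and Sp3 protein in the aortic endothelium of dKO mice by immunofluorescence. RNA of a whole gene does not measure protein, so these values do not test the deletion. The endothelial markers Cdh5 and Pecam1 were present in every library, at 66.8 FPKM or more and at 26.1 FPKM or more. The extraction note in the labels speaks of retinas, although tissue and cell type are given as lung and endothelial.

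MHC class II molecules are pairs of an alpha and a beta chain that display peptides from endosomes to CD4+ T cells. The chains assemble on the invariant chain, which proteases such as cathepsin S cut down to a short remnant, and H2-DM exchanges that remnant for a peptide. Dendritic cells, macrophages and B cells make these genes constitutively, and in most other cells, endothelium included, interferon-gamma induces them through Ciita, which is recruited to class II promoters by the RFX complex, CREB and the CCAAT-binding factor NF-Y.

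The promoters of 4 members are shown because class II promoters are known for a Y box, an inverted CCAAT bound by NF-Y, and because GC boxes are the letters bound by the Sp family. Each is the 120 bases before the annotated start, 5′ to 3′ on the strand of the gene, from RefSeq on GRCm38.p6, and capitals mark GATTGG or its complement CCAATC in the first 3 and GGGCGG in Ctss. They lie at chr17:34287824-34287943 (minus strand), chr17:34305747-34305866, chr17:34153071-34153190 and chr3:95526666-95526785 (plus strand).
H2-Aa: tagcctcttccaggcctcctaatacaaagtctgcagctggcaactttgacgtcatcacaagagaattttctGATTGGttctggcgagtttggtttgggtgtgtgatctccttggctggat
H2-Eb1: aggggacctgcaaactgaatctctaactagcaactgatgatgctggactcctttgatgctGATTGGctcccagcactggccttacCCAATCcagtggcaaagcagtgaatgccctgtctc
H2-DMb1: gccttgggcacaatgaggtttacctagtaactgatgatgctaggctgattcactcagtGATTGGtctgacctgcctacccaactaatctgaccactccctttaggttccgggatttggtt
Ctss: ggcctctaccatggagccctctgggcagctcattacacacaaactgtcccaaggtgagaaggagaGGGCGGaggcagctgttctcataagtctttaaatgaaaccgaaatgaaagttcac

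Windows from 250 bases before to 50 bases after the start were searched on both strands. The motifs were GATTGG, which holds the shorter motif CCAAT on its other strand, then the GC box GGGCGG and, of the X box, the letters GCAACAG. Of these, GATTGG began at position -49 in H2-Aa, at -60 and -35 in H2-Eb1 and at -62 in H2-DMb1, counted from the first transcribed base. Of all 32851 promoter windows, 16.1% hold it, and 37.4% hold CCAAT. Of the 2 windows listed for H2-DMa, 1 held GATTGG, at -199, and neither start matched the main annotated transcript, so no H2-DMa sequence is shown. GGGCGG was found at -55 in Ctss and in none of the windows of H2-Aa, H2-Eb1, H2-DMa and H2-DMb1, and 35.7% of all windows hold it. GCAACAG, which 5.48% of all windows hold, was found in none of these members. Only this spelling was searched, so its absence does not show that these promoters lack an X box. H2-Eb1 and H2-DMb1 also share the run aactgatgatgct, which begins at -89 and -92 and is present in 3 of the 32851 windows. These matches describe letters in a window and were not tested as binding sites. Whether the shared run is part of an X box was not tested either.

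Each of the 7 members that passed the filter was higher in dKO than in CTR MLECs, and the log2 fold changes ran from 0.65 for Cd74 to 2.40 for Ctss around a median of 0.86. Over all tested genes, 20.4% were called higher and 32.6% lower, and the median log2 fold change was -0.10. With median-of-ratios scaling of the libraries, 25.8% were called higher and 24.1% lower, the median over all genes was -0.02, and the same 7 members were called higher. In 6 of the 7, every dKO library lay above every CTR library, which was so for 11.3% of the tested genes. Ctss alone also had a log2 fold change over 1.5, the size set for a call in the methods of the study, which 1.43% of the tested genes passed upwards. In bulk RNA, more cells of a type that makes these genes and more RNA per cell cannot be told apart.

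**Figure D1:**
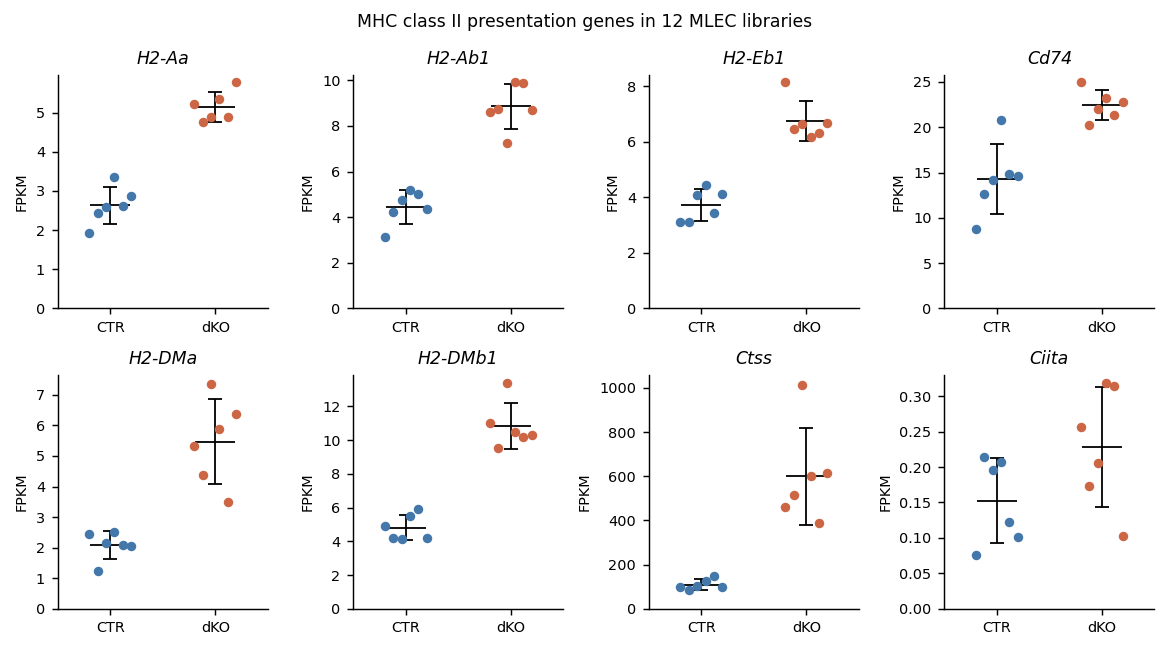
FPKM of each member in the 6 CTR and 6 dKO libraries, with replicates 1 to 6 from left to right in each group. Points are libraries, and bars are the mean with 1 SD. The groups are apart in 6 genes, CTR replicate 4 reaches the dKO range in Cd74, and the groups overlap in Ciita.

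H2-Aa, which encodes the alpha chain of I-A, had 1.93 FPKM in the lowest, 2.60 in the median and 3.36 in the highest CTR library, and 4.75, 5.06 and 5.78 FPKM in the dKO libraries. Its mean was 2.63 ± 0.476 in CTR and 5.15 ± 0.387 FPKM in dKO (SD, n = 6 each), a log2 fold change of 0.77 (SE 0.09, adjusted p = 2.01e-05). The H2-Aa groups did not overlap, and CTR replicate 1 was the lowest and CTR replicate 4 the highest of the controls.

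H2-Ab1, the beta chain that pairs with H2-Aa, ranged from 3.12 over 4.55 to 5.18 FPKM in CTR (lowest, median, highest) and from 7.27 over 8.73 to 9.91 FPKM in dKO. Its log2 fold change was 0.86 (SE 0.10, adjusted p = 2.35e-05), and the groups did not overlap. As in H2-Aa, the lowest and highest controls were replicates 1 and 4.

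H2-Eb1, the beta chain of I-E, ranged from 3.10 over 3.77 to 4.45 FPKM in CTR and from 6.17 over 6.55 to 8.16 FPKM in dKO. Its log2 fold change was 0.72 (SE 0.09, adjusted p = 3.77e-05), again without overlap, and dKO replicate 1 stood above the other dKO libraries. H2-Ea, the alpha chain that pairs with H2-Eb1, had 0 fragments in the CTR libraries and 1 fragment in dKO replicate 3. The H2-Aa and H2-Eb1 genes overlap by 118 exonic bases on opposite strands, and since the strand setting of the counting is not given in the sources used here, fragments in that stretch could belong to either gene.

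These levels rest on few fragments. The classical chains had between 62 and 148 fragments in a CTR library and between 131 and 291 in a dKO library. By mean FPKM, H2-Aa lay above 29.4%, H2-Eb1 above 38.0% and H2-Ab1 above 45.5% of the tested genes.

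H2-DM is the non-classical class II molecule that loads peptides in endosomes. H2-DMa, its alpha chain, ranged from 1.23 over 2.12 to 2.51 FPKM in CTR and from 3.51 over 5.61 to 7.35 FPKM in dKO. The log2 fold change was 1.06 (SE 0.15, adjusted p = 9.27e-05). The groups did not overlap, dKO replicate 3 was the highest library and CTR replicate 2 the lowest.

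H2-DMb1, the beta chain, ranged from 4.15 over 4.57 to 5.94 FPKM in CTR and from 9.54 over 10.4 to 13.4 FPKM in dKO. Its log2 fold change was 1.03 (SE 0.10, adjusted p = 4.59e-06), and here too dKO replicate 3 was the highest. Without that library the log2 fold change was 0.98 for H2-DMa and 0.97 for H2-DMb1. H2-DMb1 matches its neighbour H2-DMb2 at 95.745% over 1081 bases, so the counting could split fragments between them, and H2-DMb2 had 21 fragments in all CTR and 40 in all dKO libraries against 734 and 1654 for H2-DMb1. It also matches Gm64535 at 100% over 285 bases, where fragments could belong to either gene.

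Cd74 encodes the invariant chain, which blocks the peptide groove during assembly and guides class II molecules to endosomes. It ranged from 8.79 over 14.4 to 20.8 FPKM in CTR and from 20.2 over 22.4 to 25.0 FPKM in dKO. The log2 fold change was 0.65 (SE 0.14, adjusted p = 0.00224), the smallest among the 7 tested members. The groups overlapped in 1 pair of libraries, since CTR replicate 4 (20.8 FPKM) lay just above dKO replicate 2 (20.2 FPKM), and without CTR replicate 4 the log2 fold change of Cd74 was 0.76. The controls spread more widely (SD 3.90 FPKM) than the dKO libraries (SD 1.65 FPKM), with replicate 1 lowest and replicate 4 highest as in H2-Aa and H2-Ab1.

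Ctss, which trims the invariant chain, was the most abundant member and the one with the largest difference. It ranged from 84.9 over 101 to 150 FPKM in CTR and from 390 over 560 to 1013 FPKM in dKO, behind which stood 1948 to 3494 and 9286 to 24164 fragments. The mean was 5.47-fold higher in dKO, and the log2 fold change was 2.40 (SE 0.20, adjusted p = 2.42e-06), the 42nd highest of all tested genes. Every dKO library lay above every CTR library, and dKO replicate 3 stood far above the other dKO libraries, which reached 617 FPKM. Without it the log2 fold change of Ctss was 2.23.

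Ciita, the regulator on which class II transcription depends, did not pass the filter. It ranged from 0.0765 over 0.159 to 0.214 FPKM in CTR and from 0.103 over 0.232 to 0.318 FPKM in dKO, with 82 fragments in all CTR and 124 in all dKO libraries. The groups overlapped, and neither the fit without a filter (adjusted p = 0.220) nor limma-voom on the recovered fragments (log2 fold change 0.58, 95% interval -0.15 to 1.30, adjusted p = 0.194) called it. That interval holds 0 and also differences of the size seen in the chains.

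The order of the levels was Ctss, Cd74, H2-DMb1, H2-Ab1, H2-Eb1, H2-Aa, H2-DMa and Ciita in CTR, from high to low FPKM. In dKO it was the same but for H2-DMa, which had a higher mean than H2-Aa. Ctss lay above Cd74, and Cd74 above H2-DMb1, without overlap in both groups. H2-DMb1 and H2-Ab1 were not apart in CTR, where H2-DMb1 was the higher in 3 of 6 libraries, whereas it was the higher in 6 of 6 dKO libraries. H2-DMa and H2-Aa were not apart in dKO either, with H2-DMa the higher in 4 of 6 libraries.

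Ratios of 2 genes within a library do not depend on how the library was scaled. Of 7 ratios, 6 were of 2 members and 1 was of Cd74 to a macrophage marker, and they were compared by 2-sided exact permutation tests over all 924 ways to assign 6 of the 12 libraries to a group, adjusted over the 7. The ratio H2-Aa/H2-Ab1 had a median of 0.597 in CTR and 0.574 in dKO, a log2 difference of -0.03 (SE 0.09), and the exact permutation test did not separate the groups (adjusted p = 0.786). H2-Eb1/H2-Ab1 was not separated either (log2 difference -0.14, SE 0.13, exact permutation adjusted p = 0.343). The ratio H2-DMb1/H2-DMa differed by -0.22 on the log2 scale (SE 0.18, exact permutation adjusted p = 0.342). These 3 tests found no difference in the proportions of the chains, which does not show that the proportions were equal.

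Cd74/H2-Aa fell from a median of 5.35 in CTR to 4.37 in dKO, a log2 difference of -0.29 (SE 0.07, exact permutation adjusted p = 0.0152), so the invariant chain differed less between the groups than the alpha chain did. The groups overlapped in this ratio through CTR replicate 1, at 4.56. Ctss/Cd74 rose from between 5.96 and 11.0 in CTR to between 18.2 and 46.0 in dKO, a log2 difference of 1.72 (SE 0.25, exact permutation adjusted p = 0.0152) without overlap, and the largest ratio was again that of dKO replicate 3.

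H2-DMa/H2-Aa differed by 0.41 on the log2 scale (SE 0.23, exact permutation adjusted p = 0.174), and by 0.55 without CTR replicate 1 (exact permutation adjusted p = 0.0265). Cd74 was also set against Lyz2, a lysozyme gene of the macrophage list, and which cells made Lyz2 here was not tested. Cd74/Lyz2 had a median of 0.0191 in CTR and 0.0134 in dKO, a log2 difference of -0.61 (SE 0.22, exact permutation adjusted p = 0.0303). This call was lost without any 1 of 9 of the 12 libraries, with adjusted p up to 0.0859, and was kept without CTR replicate 1, dKO replicate 2 or dKO replicate 5.

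**Figure D2:**
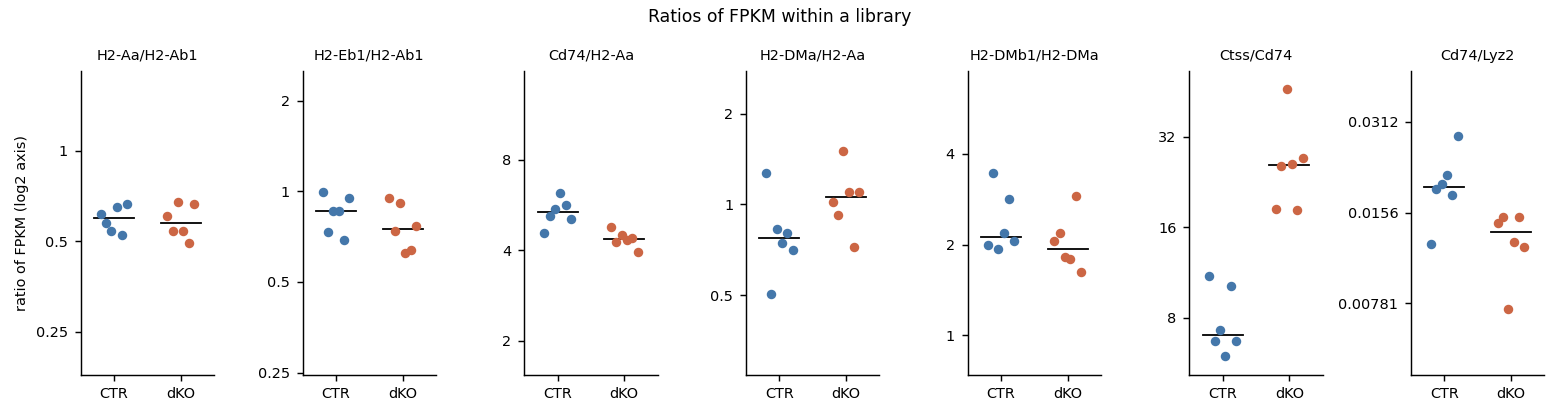
Ratios of the FPKM of 2 genes within each library, on log2 axes, for the 6 CTR and 6 dKO libraries. Points are libraries and lines are medians. Ctss/Cd74 lies between 5.96 and 11.0 in CTR and between 18.2 and 46.0 in dKO, while H2-Aa/H2-Ab1 has medians of 0.597 and 0.574.

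Cells that make class II genes were followed with marker lists, and their part in the result was not tested. Of 10 macrophage markers, 9 were higher in dKO and Marco was lower (log2 fold change -1.91). One of the 9, Fcgr1, passed the filter through its dKO libraries alone (0.399 to 0.835 FPKM in CTR, 1.96 to 17.3 FPKM in dKO). Its direction was thus bound to the filter and adds nothing to the count. Of all tested genes, 20.4% were called higher and 32.6% lower, the shares to set beside each marker list. The summed FPKM of the macrophage list, most of it Lyz2, ranged from 790 to 1342 in CTR and from 2061 to 4494 in dKO, with dKO replicate 3 the highest. That library was also the highest dKO library in 9 of the 10 macrophage markers, as in H2-DMa, H2-DMb1 and Ctss, but it was the lowest dKO library in H2-Ab1.

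Of 10 dendritic cell markers, 4 were tested and 3 were higher, Clec10a (2.40), Itgax (0.76) and Clec9a (0.31). Zbtb46 did not pass the test (means of 1.38 and 1.36 FPKM, adjusted p = 0.827), and which cells made it was not tested. Batf3, which did not pass the filter, had means of 0.983 in CTR and 0.373 FPKM in dKO and was called lower when rescaled to TPM (-0.99, adjusted p = 0.00662) and by limma-voom (-1.49, adjusted p = 0.00991). The summed list, most of it Itgax and Clec10a, ranged from 11.7 to 19.5 FPKM in CTR and from 21.1 to 63.7 FPKM in dKO. Flt3, Xcr1 and Ccr7, also of this list, were under 0.25 FPKM in every library. No row was found under the symbol Cd209a, so it was not analysed. Of the B cell genes, Cd79a, Cd79b, Ms4a1 and Pax5 were under 0.25 FPKM in every library. Cd22 had means of 0.871 and 1.35 FPKM and did not pass the test (0.32, adjusted p = 0.0529), but was called higher with median-of-ratios scaling (adjusted p = 0.0335), quantile normalization (adjusted p = 0.0261) and limma-voom (adjusted p = 0.0461). The sum of the B cell list ranged from 0.652 to 1.59 and from 0.923 to 2.22 FPKM. Of the 7 T and NK cell markers none passed the filter, and 5 were under 0.25 FPKM everywhere. No row was found under the symbol Cd3g. The sum, nearly all Cd4, was at most 0.150 in CTR and 0.760 to 1.93 FPKM in dKO. Cd4 was called higher by limma-voom (4.14, adjusted p = 3.08e-06). The T cell receptor genes Cd3e and Cd3d had 0 fragments in CTR and 1 fragment each over all dKO libraries. Which cells made Cd4 was not tested.

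Alveolar type II cells also express class II genes. Of their 6 markers, Abca3 and Epcam were higher in dKO and 4 did not pass the test, Sftpc with 58.8 to 416 FPKM in CTR and 114 to 307 FPKM in dKO among them. The sum of the list was lowest in CTR replicate 1 (81.2 FPKM) and highest in CTR replicate 4 (491 FPKM), the libraries that were also the lowest and highest controls in Cd74, H2-Aa and H2-Ab1. All 10 endothelial markers were higher in dKO (median log2 fold change 0.83), where 20.4% of all tested genes were called higher. The summed endothelial list ranged from 188 to 309 in CTR and from 358 to 483 FPKM in dKO. CTR replicates 1 and 4 were the lowest and highest controls in this sum too, and CTR replicate 4 was the highest control in all 10 markers. In the macrophage sum CTR replicate 4 was also the highest control (1342 FPKM), but CTR replicate 6 was the lowest (790 FPKM). Of 5 tested fibroblast markers, 3 collagen genes were lower, Dcn was higher and Pdgfra did not pass the test, and the sum ranged from 2122 to 2689 in CTR and from 820 to 1645 FPKM in dKO.

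**Figure D3:**
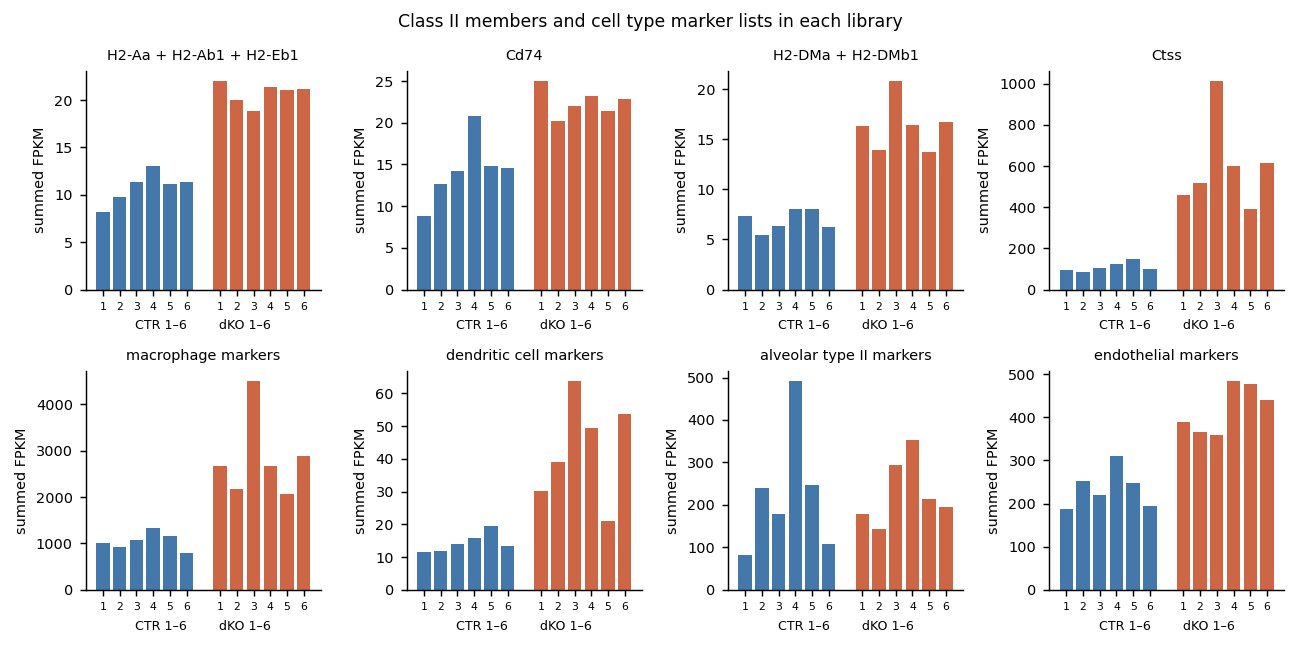
Summed FPKM of the classical chains, Cd74, the DM chains, Ctss and 4 lists of cell type markers in each library, numbered by replicate. Bars are single libraries. The macrophage list and Ctss are highest in dKO replicate 3 (4494 and 1013 FPKM), and the alveolar type II list and Cd74 are the highest among controls in CTR replicate 4 (491 and 20.8 FPKM). The macrophage and endothelial lists are also the highest among controls in CTR replicate 4 (1342 and 309 FPKM).

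Other genes of the pathway were taken from 6 lists of 36 genes, of which 27 were tested. Of these, 14 were higher, 6 were lower and 7 did not pass the test, with a median log2 fold change of 0.24, beside 20.4% called higher, 32.6% called lower and a median of -0.10 over all tested genes. The remaining chains of the class II region were not among them. H2-Oa and H2-Ob, which form the DM inhibitor H2-DO, and H2-Eb2 and H2-Ea were under 0.25 FPKM in every library, and H2-DMb2 ranged from 0.0335 to 0.339 FPKM.

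Of the 7 factors that assemble on class II promoters, 4 were called lower and 3 did not pass the test, where 32.6% of all tested genes were called lower. With median-of-ratios scaling, 3 were called lower and 1 higher, against 24.1% and 25.8% of all tested genes. The NF-Y subunit Nfyb fell by 0.52 (adjusted p = 1.39e-04) and Nfyc fell by 0.23 (adjusted p = 0.00531), while Nfya differed by 0.12 (adjusted p = 0.140) and was called higher with median-of-ratios scaling (0.20) and with quantile normalization. Creb1, which binds the X2 box, fell by 0.42 on the log2 scale (adjusted p = 5.23e-04). Rfx5, the DNA-binding subunit of the RFX complex, fell by 0.31 (adjusted p = 0.0398), a call lost in 11 of 22 alternatives, among them median-of-ratios scaling (-0.25, adjusted p = 0.104) and the fits without CTR replicate 1, 2, 3 or 5 or dKO replicate 1, 3, 4 or 6. Its partners Rfxap (-0.03) and Rfxank (-0.19) were not called, although Rfxank was without CTR replicate 6 (-0.26, adjusted p = 0.0224).

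Interferon-gamma signalling leads to Ciita. Of 7 tested genes of this axis, 4 were higher, 1 was lower and 2 did not pass the test. Over all tested genes, 20.4% were called higher and 32.6% lower. No row was found under the symbol Ifng, so the gene of interferon-gamma itself was not analysed. The receptor chains Ifngr1 and Ifngr2 rose by 0.53 (adjusted p = 1.22e-04) and 0.67 (adjusted p = 3.09e-05) on the log2 scale, from means of 43.2 and 19.9 to 62.6 and 32.4 FPKM. Both receptor chains were higher in every dKO than in every CTR library, as were 11.3% of all tested genes. Irf1, an interferon-induced factor that acts on the Ciita promoter, rose by 0.56 (adjusted p = 0.0105).

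Jak2, the kinase bound to Ifngr2, fell by 0.71 (adjusted p = 1.73e-04), with means of 32.8 and 19.7 FPKM. Jak1, bound to Ifngr1, differed by -0.17 (adjusted p = 0.0954), and was called lower without CTR replicate 1 (-0.21, adjusted p = 0.0458). Socs1, the feedback inhibitor of these kinases, differed by -0.19 (adjusted p = 0.267). Usf1, which acts at the Ciita promoter, was called higher (0.24, adjusted p = 0.0314), a call lost in 9 of 22 alternatives, among them TPM and the fits without replicate 1, 3 or 6 of either group. The receptor and its kinases thus did not move one way.

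The endosomal proteases that prepare peptides and cut the invariant chain were higher together with Ctss. All 7 tested genes of that list, which holds cystatin C (Cst3), an inhibitor of cathepsins, were called higher, and their median log2 fold change was 1.10. Over all tested genes, 20.4% were called higher and the median was -0.10. Ctsb had a mean of 312 ± 31.3 FPKM in CTR and 840 ± 163 FPKM in dKO, a log2 fold change of 1.41. The aspartic protease Ctsd rose by 1.49, from 255 ± 41.7 to 720 ± 140 FPKM. Both were higher in every dKO than in every CTR library, as were 11.3% of all tested genes.

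The asparaginyl endopeptidase Lgmn, which makes early cuts in the invariant chain, rose by 1.18 (adjusted p = 1.38e-05). Ctsz rose by 1.10, Ctsl, the invariant chain protease of thymic epithelium, by 0.83 and Ctsh by 0.76. Cst3 was called (0.57, adjusted p = 0.0337) but lost the call in 9 of 22 alternatives, among them quantile normalization and the fits without CTR replicate 1, 3, 5 or 6 or dKO replicate 3, 4 or 6. In 5 of these 7 genes dKO replicate 3 was the highest dKO library, as in Ctss and in the macrophage list. The reductase Ifi30 did not pass the filter, with 0.0613 to 1.69 FPKM in dKO and 0.246 to 0.936 FPKM in CTR.

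Costimulators, which T cells need beside the peptide, did not share a direction. Cd80 rose by 1.63 (adjusted p = 1.24e-04), from between 2.02 and 5.84 FPKM in CTR to between 8.46 and 25.5 FPKM in dKO, and the checkpoint ligand Cd274 rose by 0.66 (adjusted p = 0.0252), a call lost without CTR replicate 1 or 2 or dKO replicate 3 or 5. Icosl fell by 0.64 (adjusted p = 0.00892), from a mean of 2.94 to 1.46 FPKM. Cd40 was not called (0.02, SE 0.18, adjusted p = 0.918), with means of 2.60 and 2.61 FPKM.

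Cd86 did not pass the filter, with 0.0825 to 0.516 FPKM in CTR and 0.449 to 1.62 FPKM in dKO. In limma-voom on the recovered fragments, which called 15.7% of 20860 genes higher, its log2 fold change was 1.62 (95% interval 0.72 to 2.51, adjusted p = 0.00682). Pdcd1lg2 was under 0.25 FPKM in every library. Marchf1, a ligase that sends class II molecules to degradation, rose by 0.59 (adjusted p = 0.00390), without overlap, while its relative Marchf8 differed by -0.04 (adjusted p = 0.701).

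**Figure D4:**
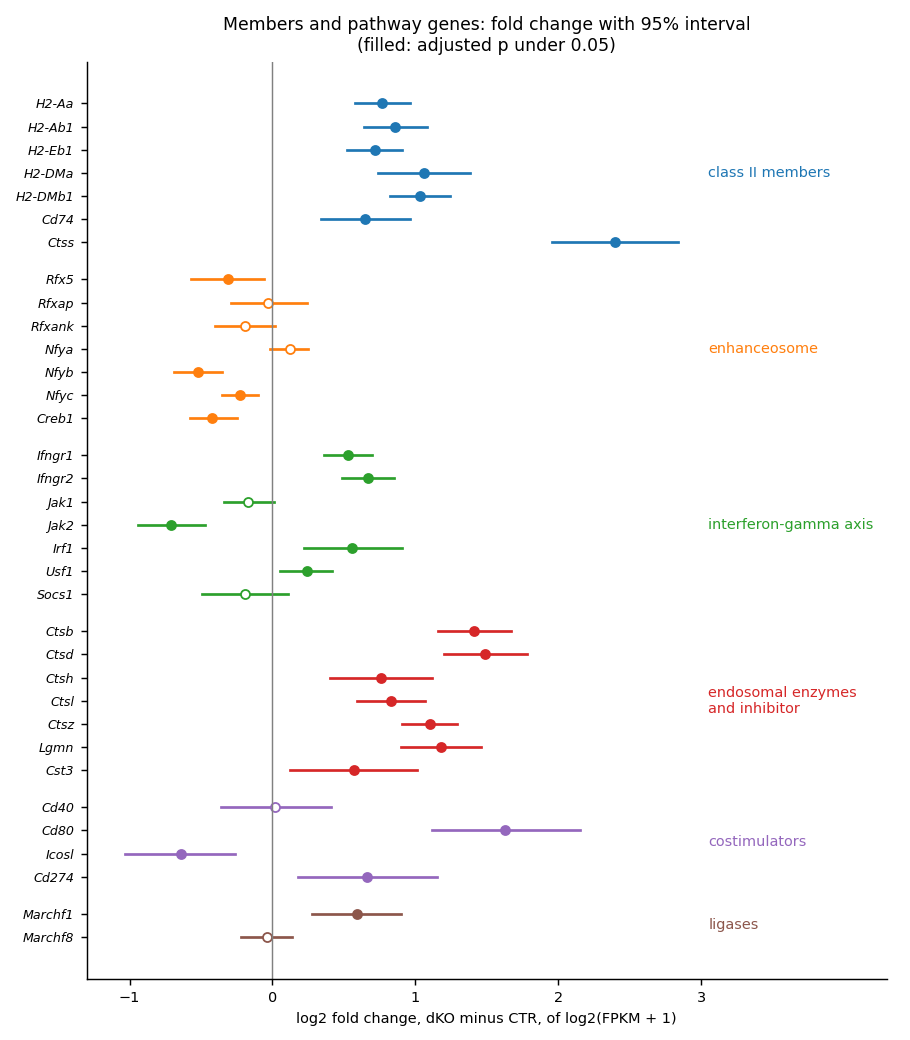
Log2 fold change, dKO minus CTR, of log2(FPKM + 1) for the 7 tested members and the 27 tested pathway genes, with the 95% interval of limma as a line. Filled points have an adjusted p under 0.05. All 7 members and the 7 endosomal genes lie above 0, Ctss furthest at 2.40, and 4 of 7 promoter factors are called below 0.

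How the members varied over the 12 libraries was described with each group centred on its own mean. Pearson's r with the mean log2(FPKM + 1) of H2-Aa, H2-Ab1, H2-Eb1 and Cd74 was 0.98 for Cd74, 0.93 for H2-Aa, 0.80 for H2-Ab1 and 0.77 for H2-Eb1, which are part of that mean and so bound to follow it. Over the 6 dKO libraries alone it was 0.86, 0.69, 0.43 and 0.57 for these genes. It was 0.11 for H2-DMa, 0.11 for H2-DMb1 and 0.14 for Ctss, which are not. The 5 tested genes most like the mean were Epn3 (0.93), Ell (0.90), Lmo7 (0.86), Dnajc7 (0.86) and Sirt3 (0.85), of which Ell was higher in dKO (0.31), Dnajc7 and Sirt3 were lower (-0.38 and -0.46), and Epn3 and Lmo7 did not pass the test. For Epn3, r was 0.99 over the 6 CTR and 0.56 over the 6 dKO libraries. Over all 12 libraries, r ranged from -0.14 to 0.40 for the 10 macrophage markers (Lyz2 0.18), from 0.46 to 0.71 for the 6 alveolar type II markers (Sftpb 0.71, Sftpc 0.61), from 0.23 to 0.70 for the 10 endothelial markers (Cdh5 0.70) and from 0.11 to 0.83 for the 4 tested dendritic cell markers (Itgax 0.83). Over the 6 CTR libraries alone, r was 0.38 for Lyz2, 0.93 for Sftpb, 0.71 for Sftpc, 0.81 for Cdh5 and 0.91 for Itgax. Over the 6 dKO libraries alone it was -0.18, 0.08, 0.02, 0.29 and 0.14 in that order. Not every endothelial marker had a lower r in dKO, as Tie1 had 0.48 in CTR and 0.80 in dKO. The points share the depth and composition of their libraries, CTR replicates 1 and 4 lie at the ends, and these values are a description with no test.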

How the data were processed

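The authors trimmed the reads, mapped them with STAR (mm39) and deposited FPKM values, whereas the submitters' processing notes list Bowtie2 2.2.3, HISAT2 2.1.0, TopHat2 and DESeq2. The counting program, annotation and strand setting are not given in the sources used here. The knockout columns are named after tamoxifen, which both groups received, and were matched by elimination. Symbols came from GENCODE on GRCm39 (27706 of 28689 genes matched). Whole fragments were recovered for 100% of genes (tolerance 0.01). For a 2 kb gene, 1 fragment equals 0.0279 to 0.0322 FPKM. No pair of libraries within a group repeated another (chi-square per degree of freedom at least 11.3). Genes that reached 1 FPKM in 6 or more libraries were tested on log2(FPKM + 1) with limma 3.58.1 (R 4.3.3, trend) without covariates, and the steps were tested on simulated data. Copies were sought with blastn 2.17.0 (at least 95% over 150 bases). The other steps used Python 3.11.15, SciPy 1.17.1 and pandas 2.3.3. Alternatives were other pseudocounts (0.1, 0.01), filters, scalings, robust eBayes, a block, leaving out each library, and limma-voom on recovered fragments, the last chosen after seeing the data. Named are the members, Sp1 and Sp3, genes of the pathway lists, leading genes of the marker lists and the 5 genes most like the class II mean. The members and lists were chosen with earlier results of these data known. A few genes of the lists are not reported here.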

Additional observations from a re-analysis of the deposited data

Results flagged for a closer look

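In 8 of 88 groups of 6 values, the highest or lowest library lay far from the others by Dixon's test, where chance gives about 1 in 20, or 4.4. Of the members, H2-Eb1 had 8.16 FPKM in dKO replicate 1 (others 6.17 to 6.66), H2-DMa 1.23 FPKM in CTR replicate 2 (others 2.04 to 2.51), H2-DMb1 13.4 FPKM in dKO replicate 3 (others 9.54 to 11.0) and Ctss 1013 FPKM in dKO replicate 3 (others 390 to 617). The ratio Ctss/Cd74 was 46.0 in dKO replicate 3 (others 18.2 to 27.1). Among pathway genes, Ifngr2 had 40.0 FPKM in dKO replicate 5 (others 28.7 to 32.0), and Jak2 had 24.4 FPKM in CTR replicate 4 (others 32.4 to 36.1) and 25.5 FPKM in dKO replicate 5 (others 17.5 to 20.3). All 4 members named here kept their direction and call without the library in question.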

How the results depend on the processing

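All 7 tested members were called higher under each of 22 alternatives, and Ciita, which other fits did not test, was not called by either fit that held it. Genes past an adjusted p under 0.05 numbered 6614, between 5858 and 8252 under the alternatives, and 6955 with the replicate number as a block. Those also past a log2 fold change of 1.5 numbered 247, but 486 and 525 with pseudocounts of 0.1 and 0.01, 459 when rescaled to TPM, 1637 by limma-voom and 231 to 265 without 1 library. The replicate numbers do not pair the libraries (correlations of deviations from -0.11 to 0.57). With them as a block, 0 of 7 ratios were called, against 3: Cd74/H2-Aa -0.29, Ctss/Cd74 1.72 and Cd74/Lyz2 -0.61, each at an adjusted p of 0.146, where the smallest p that 6 pairs allow is 0.0312, while Jak1 was called lower (-0.17, adjusted p = 0.0256). Without 1 library the log2 differences were -0.34 to -0.25 for Cd74/H2-Aa, 1.55 to 1.82 for Ctss/Cd74, -0.73 to -0.46 for Cd74/Lyz2, 0.28 to 0.55 for H2-DMa/H2-Aa, -0.07 to 0.02 for H2-Aa/H2-Ab1, and Sp3 was at -0.18 to -0.11. Of 27 tested pathway genes, 10 changed a call or sign. The sign turned in 3 that were not called: Rfxap (0.06 with median-of-ratios scaling, 0.05 with quantile normalization, -0.10 to 0.03 without 1 library), Marchf8 (0.04, 0.02, and -0.08 to 0.01) and Cd40 (-0.01 rescaled to TPM, -0.06 to 0.15 without 1 library). The causes were not tested. Ciita rests on 82 fragments in all CTR and 124 in all dKO libraries, which limits its precision.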

Other observations

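The class II genes on chromosome 17 lie among genes of peptide processing for class I, named here for their position only. Between the start of H2-DMa (34338515) and the end of H2-Eb1 (34535648) on GRCm39, 10 other genes of the table overlap the interval and 5 were tested. The peptide transporter genes Tap1 and Tap2 rose by 1.38 (adjusted p = 1.55e-05) and 0.48 (adjusted p = 4.76e-04) on the log2 scale, from means of 3.39 and 3.30 to 10.7 and 5.01 FPKM. The immunoproteasome subunit genes Psmb8 and Psmb9 rose by 0.98 (adjusted p = 6.35e-05) and 0.89 (adjusted p = 3.81e-04). Brd2, which overlaps the start of the interval, was not called (0.14, adjusted p = 0.283). The median log2 fold change of these 5 was 0.89, beside -0.10 over all tested genes.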
